A study of Homo sapiens with 6 samples.

Results

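The genes described here make cholesterol and fatty acids, together with the SREBP system that controls them: 32 genes chosen by symbol, of 58395 genes in the deposited table. They were read in 6 RNA sequencing libraries of M14, an established human melanoma cell line cultured as melanospheres, clusters of cells in suspension. After mechanical dissociation the cells were stained for CD20, a B-cell surface antigen encoded by MS4A1, and flow sorted into 3 CD20+ and 3 CD20- fractions, with no drug or genetic change in either group. A single cell line was used, and the labels do not say that the replicates came from separate cultures, so every p-value reflects variation among these 6 libraries, which could be technical only.

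Levels are given in FPKM (fragment counts divided by a gene's exon length and by a library size the authors set), in which levels of different genes can be compared. The libraries held 15651172 to 17479732 recovered fragments in the CD20+ group and 16666543 to 17915936 in the CD20- group. MS4A1 averaged 1.16 FPKM in CD20+ and 0.297 FPKM in CD20- cells. Of the 7 melanocyte lineage markers, MITF and PMEL reached a mean of 1 FPKM. PMEL, a pigment granule protein, averaged 26.05 FPKM in CD20+ and 14.96 FPKM in CD20- cells (limma with the replicate block described below, adjusted p = 0.0117), and its part in the results was not tested. SOX10, MLANA, TYR, DCT and S100B, which mark that lineage, averaged 0 to 0.159 FPKM in CD20+ and 0.00447 to 0.146 FPKM in CD20- cells, so most genes that define the lineage were at or near 0. The 7 B lineage markers, MS4A1 among them, summed to 4.60 to 4.89 FPKM in CD20+ and 2.37 to 3.64 FPKM in CD20- libraries, with PTPRC at 0.00241 and 0.00387 FPKM. The 4 fat cell markers summed to at most 0.233 and 0.213 FPKM, and the 4 liver cell markers to at most 0.0888 and 0.236 FPKM.

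Cholesterol is built from acetyl-CoA through mevalonate, farnesyl diphosphate, squalene and lanosterol, and fatty acids are built from the same acetyl-CoA by carboxylation, chain growth and desaturation. Both routes are controlled by SREBP transcription factors. These are made as membrane proteins of the endoplasmic reticulum: SCAP carries them to the Golgi for cleavage when sterols are scarce, and INSIG proteins hold SCAP back when sterols are plentiful. The cleaved factor binds sterol regulatory elements in promoters, usually with NF-Y at a CCAAT box close by. Melanoma cells, like many tumour cells, can make both lipids themselves.

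The promoters of SREBF1, SREBF2, MVD and DHCR7 are shown because these genes lay higher in each CD20+ library than in any CD20- library and stand for the regulators and for an early and the last step of the sterol route. The sequences are from RefSeq (GRCh38.p14), cut to bases that no exon of a protein-coding gene covers, 5′ to 3′ on the gene's strand. Capitals mark matches to the sterol regulatory element TCACNCCAC and to CCAAT, on either strand (a match on the other strand reads ATTGG). The stretches are chr17:17837003-17837236 (minus strand), chr22:41832855-41833078 (plus strand), chr16:88663162-88663341 (minus strand) and chr11:71448436-71448643 (minus strand, one of 2 listed starts).
SREBF1: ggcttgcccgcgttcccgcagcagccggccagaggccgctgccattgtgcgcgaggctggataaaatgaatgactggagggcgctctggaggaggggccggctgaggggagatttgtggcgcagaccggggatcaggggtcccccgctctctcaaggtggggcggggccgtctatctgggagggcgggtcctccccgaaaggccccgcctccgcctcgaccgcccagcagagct
SREBF2: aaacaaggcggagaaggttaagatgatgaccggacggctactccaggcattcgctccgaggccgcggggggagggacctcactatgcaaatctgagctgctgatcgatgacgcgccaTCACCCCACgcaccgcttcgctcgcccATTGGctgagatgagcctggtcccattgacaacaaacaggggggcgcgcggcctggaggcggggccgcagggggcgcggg
MVD: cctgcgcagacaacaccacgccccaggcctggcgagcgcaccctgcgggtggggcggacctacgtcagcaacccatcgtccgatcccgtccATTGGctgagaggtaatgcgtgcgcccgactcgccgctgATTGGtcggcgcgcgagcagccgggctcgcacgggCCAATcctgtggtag
DHCR7: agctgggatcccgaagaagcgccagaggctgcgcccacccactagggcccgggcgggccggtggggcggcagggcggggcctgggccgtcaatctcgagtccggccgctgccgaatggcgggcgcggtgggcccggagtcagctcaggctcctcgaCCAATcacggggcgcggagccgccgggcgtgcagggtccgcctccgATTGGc
The SREBF2 stretch held the sterol element TCACCCCAC, which starts 133 bases before the transcription start, and a CCAAT box downstream of it. MVD held 3 CCAAT boxes and DHCR7 held 2, and SREBF1 held neither motif in this window. Windows ran from 250 bases before to 50 after each RefSeq start. Of the 32 genes 28 matched the table, with 39 windows, and ACAT2, FASN, FDFT1 and SQLE did not. The sterol element occurred in 1 of these 39 windows and in 1.13% of all 35116 windows. CCAAT occurred in 25 of the 39 and in 34.6% of all windows, and the E-box CACGTG, which SREBPs can also bind, in 5 of the 39 and in 7.26%. The GC box GGGCGG, the site of Sp1, occurred in 35 of the 39 and in 45% of all windows. A match is a description of letters, and SREBP sites often depart from the letters searched.

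Of the 32 genes, SREBF1 was called higher in CD20+ cells in the paired fit, a share near that of all genes called higher. None was called in the fit without pairing. The 13155 genes averaging 1 FPKM or more, 31 of the 32 among them, were tested on log2(FPKM + 1) with limma and Benjamini-Hochberg adjustment over all genes. Without a block for the replicate number, 0 of the 31 passed an adjusted p of 0.05, and 3 had an unadjusted p under 0.05, against 9.2% of all genes. That fit called 0.0076% of all genes, which is the mitochondrial transfer RNA gene MT-TE alone. The replicate numbers were taken as pairs, which the labels do not state. With this replicate block 1 of the 31 was called higher and 0 lower. Of all genes 5.83% were called, 3.19% higher and 2.64% lower, so the 31 genes were not called higher more often than genes in general. At an unadjusted p under 0.05 the block fit had 8 of the 31, against 21.3% of all genes. With the block and a filter at a mean of 10 FPKM, 3 of 26 were called higher and 0 lower, where 21.2% of all genes were called, 9.93% higher and 11.3% lower. In that fit 93.4% of genes had an infinite prior, so their spread was taken from the trend over all genes and not from their own libraries. The same held for 90.3% of genes in the block fit without replicate 1, and voom with the block had a median prior of 80257 degrees of freedom. In the block fit without replicate 3, 89.5% of genes had an infinite prior. Calls from these fits, given below as such, rest on that shared spread. The block fit of all libraries at 1 FPKM also leaned on shared spread, with a median prior of 10.2 against 2 residual degrees of freedom. The block fit without replicate 1 called 5 of the 31 genes, against 2141 of 13155 genes. Voom with the block called 5 of the 31, against 1619 of 13141 genes. A p that misses the threshold does not show that the levels were alike.

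The CD20+ and CD20- libraries did not overlap for 10 of the 31 genes, each higher in CD20+: MVD, FDPS, TM7SF2, EBP, DHCR7, SCAP, SREBF1, SREBF2, ACLY and FASN. No gene of the 31 lay lower without overlap. Some gaps were small. The lowest CD20+ and highest CD20- libraries read 21.30 and 21.27 FPKM for SCAP, 252 and 250 FPKM for FASN, and 22.7 and 22.1 FPKM for TM7SF2. Among all genes tested 8.87% lay higher without overlap and 6.14% lower. These are not matched for level: 26 of the 31 genes averaged 10 FPKM or more, where 4503 of 13155 genes did. The median log2 change of the 31 genes was 0.14, that of all genes tested 0.00025, and 22 of the 31 changes were positive, against 50.1% of all genes. The mitochondrial genome gave 20.6, 11.9 and 17.4% of the fragments in CD20+ replicates 1, 2 and 3, against 4.25, 5.73 and 5.06% in CD20- replicates 1, 2 and 3, and its part in these differences was not tested. The scaling bears on the sign: with each library brought to the same FPKM total, the median of the 31 genes was -0.36 and that of all genes -0.41, and 19 of the 22 positive changes turned negative. With the same total taken without mitochondrial genes, the medians were 0.24 and 0.087. Fewer cells with a transcript and less of it per cell cannot be told apart in these libraries.

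**Figure D1:**
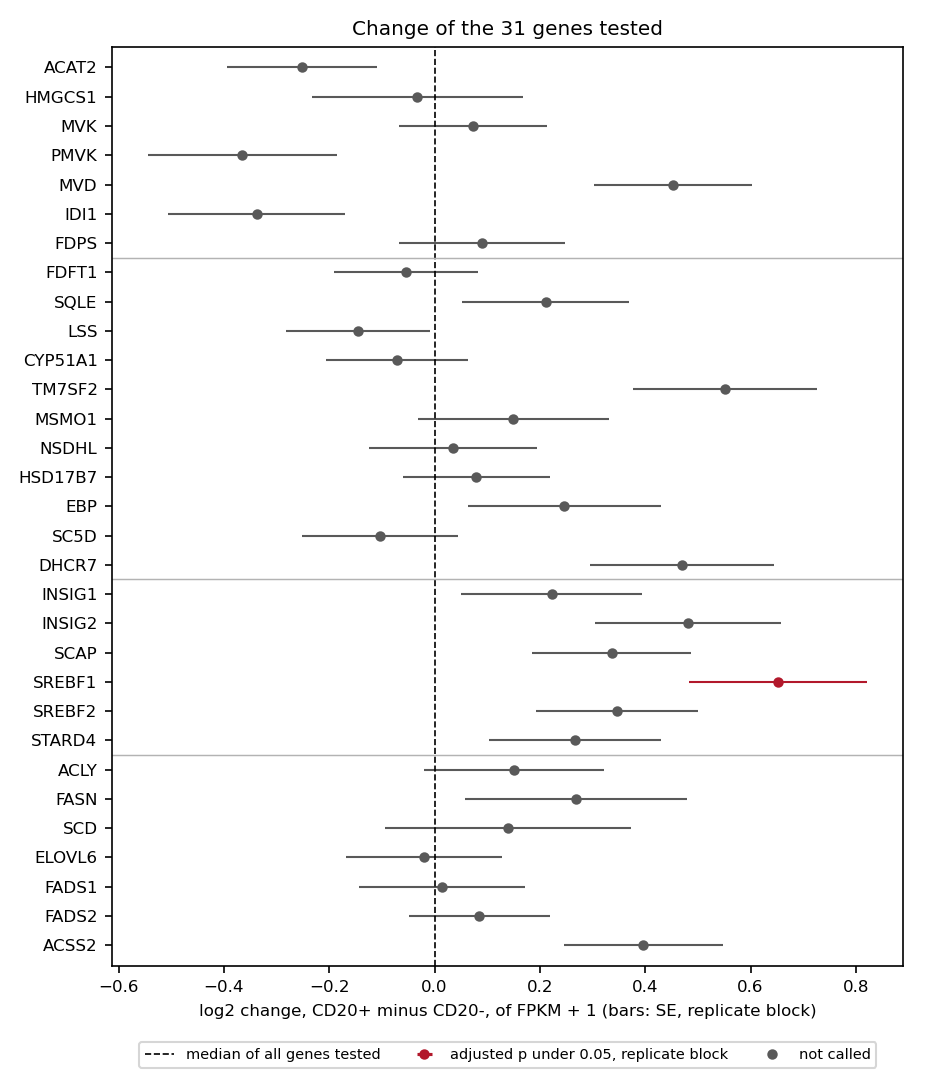
Log2 change of FPKM + 1, CD20+ minus CD20-, for the 31 genes tested (points), with the SE of the fit with the replicate block (bars), ordered by role. The dashed line is the median of all genes tested, and SREBF1 at 0.65 is the gene called.

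SREBF1, a regulator, had the largest change of the 31 genes. It encodes SREBP-1, the factor best known for fatty acid genes (ENSG00000072310, GRCh38 chromosome 17, 17810399 to 17837002). It measured 62.7, 48.4 and 64.7 FPKM in CD20+ replicates 1, 2 and 3, against 35.1, 41.0 and 34.1 FPKM in CD20- replicates 1, 2 and 3. Each CD20+ library of SREBF1 lay above each CD20- library, and the gap was narrowest in replicate 2. The means were 58.6 ± 8.93 FPKM in CD20+ and 36.7 ± 3.72 FPKM in CD20- cells (SD, n = 3), on 5292 to 8217 fragments per library. SREBF1 rose in the fit with the replicate block, by a log2 change of 0.65 ± 0.17 (SE, limma, adjusted p = 0.0437), and without the block it did not pass (adjusted p = 0.349). Without replicate 2 the paired change was 0.86 (adjusted p = 0.1), and without replicate 3 it was 0.53 (adjusted p = 0.434), so the call was lost in both. Without replicate 1 it held, at 0.57 (adjusted p = 0.00568). It was also lost with the block and no filter (adjusted p = 0.416) and with a prior neither trended nor robust (adjusted p = 0.0717). Scaled to the FPKM total, its change was 0.15 with an adjusted p of 0.5 in limma with the block. With the total taken without mitochondrial genes it was 0.76 (limma with the block, adjusted p = 0.0142). With quantile normalisation and no block it was 0.69 (adjusted p = 0.263). The gene has alternative first exons, and the deposited value joins their transcripts. Of its exon bases, 6.92% also belong to RAI1 on the other strand.

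SREBF2 encodes SREBP-2, the factor best known for sterol genes, whose promoter carries the element shown above. It measured 55.5, 57.8 and 62.8 FPKM in CD20+ replicates 1, 2 and 3, against 41.0, 51.9 and 45.4 FPKM in CD20- replicates 1, 2 and 3. The groups did not overlap, and the log2 change of 0.35 ± 0.15 (SE) did not pass with the block (adjusted p = 0.217). In CD20+ cells the mean levels of SREBF1 and SREBF2 were close, 58.6 and 58.7 FPKM, whereas in CD20- cells SREBF1 stood at 36.7 and SREBF2 at 46.1 FPKM.

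SCAP, the escort of both factors, measured 27.6, 21.3 and 23.8 FPKM in CD20+ replicates 1, 2 and 3, against 19.0, 21.3 and 16.7 FPKM in CD20- replicates 1, 2 and 3. Replicate 2 was level between the groups, with a log2 difference of 0.0019, and the change of 0.34 ± 0.15 (SE) did not pass with the block (adjusted p = 0.224). INSIG1, which retains SCAP and is itself a well known SREBP target, measured 78.0, 119 and 116 FPKM in CD20+ replicates 1, 2 and 3, against 73.7, 87.6 and 104 FPKM in CD20- replicates 1, 2 and 3. These groups overlapped, though each pair was higher in CD20+, and the change of 0.22 ± 0.17 (SE) did not pass with the block (adjusted p = 0.503). Without the block, leaving out 1 library moved it from 0.099 (without CD20- replicate 1) to 0.42 (without CD20+ replicate 1). Its paralog INSIG2 was expressed at a far lower level. It measured 4.32, 11.0 and 10.3 FPKM in CD20+ replicates 1, 2 and 3, against 4.34, 5.17 and 7.03 FPKM in CD20- replicates 1, 2 and 3. The 2 libraries of replicate 1 were level and low, and the difference came from replicates 2 and 3. INSIG2 did not pass with the block (log2 change 0.48 ± 0.18 SE, adjusted p = 0.145). It did without replicate 1 (log2 change 0.72, adjusted p = 0.000472) and in voom on recovered fragments with the block (0.57, adjusted p = 0.0114).

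STARD4, a carrier that moves sterol between membranes, averaged 30.4 ± 3.67 FPKM in CD20+ and 25.2 ± 4.77 FPKM in CD20- cells (SD, n = 3), and the groups overlapped. Its change of 0.27 did not pass with the block (limma, adjusted p = 0.386) and passed without replicate 1 (0.47, adjusted p = 0.0366). The 6 genes of this role all had positive changes, with a median of 0.34, and their summed level was 255, 288 and 311 FPKM in CD20+ replicates 1, 2 and 3, against 202, 227 and 234 FPKM in CD20- replicates 1, 2 and 3. Of the 6, 3 lay higher without overlap, where 8.87% of all genes did. In each of the 3 pairs 4 were higher, where 21.8% of all genes were. Scaled to the FPKM total, 4 of the 6 changes turned negative, and those of SREBF1 and INSIG2 stayed positive.

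**Figure D2:**
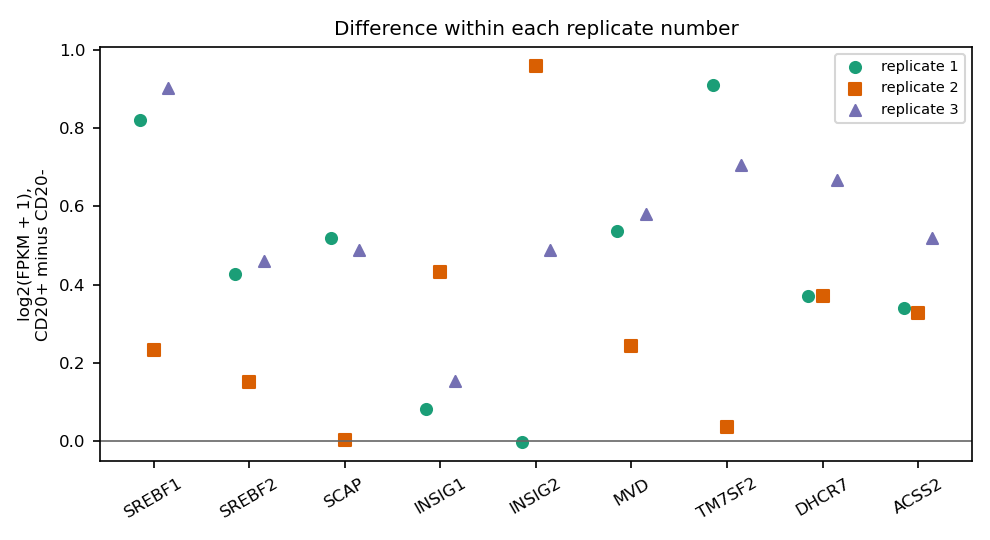
Difference in log2(FPKM + 1), CD20+ minus CD20-, within each replicate number (circles 1, squares 2, triangles 3) for the 9 tested genes given in every library. SREBF1 spans 0.23 to 0.90, SCAP and TM7SF2 are near 0 in replicate 2, and INSIG2 is near 0 in replicate 1.

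No gene of the mevalonate steps was called in the block fit of all libraries on deposited log2(FPKM + 1) at the filter of 1 FPKM alone. MVD, the decarboxylase that makes isopentenyl diphosphate, measured 42.7, 44.0 and 50.4 FPKM in CD20+ replicates 1, 2 and 3, against 29.1, 37.1 and 33.4 FPKM in CD20- replicates 1, 2 and 3. The groups did not overlap, and the log2 change was 0.45 ± 0.15 (SE). It did not pass with the block (limma, adjusted p = 0.0994) and passed with the block and the filter at 10 FPKM (adjusted p = 0.0348). With the block MVD also passed in voom (adjusted p = 0.0289) and with the FPKM total without mitochondrial genes (adjusted p = 0.03). It did not with no filter (adjusted p = 0.416) or without replicate 1 (adjusted p = 0.0688). PMVK and IDI1, the kinase before MVD and the isomerase after it, had lower means in CD20+. PMVK averaged 34.3 ± 10.2 FPKM in CD20+ and 43.5 ± 5.35 FPKM in CD20- cells (SD, n = 3), lower in CD20+ in replicates 2 and 3 and higher in replicate 1. IDI1 averaged 32.7 ± 5.62 FPKM in CD20+ and 41.4 ± 4.004 FPKM in CD20- cells. Neither passed with the block (adjusted p = 0.267 and 0.27), and PMVK did without replicate 1 (log2 change -0.63, adjusted p = 0.002). With the block and libraries brought to the same FPKM total, where the median of all genes was -0.41, PMVK (-0.87), IDI1 (-0.84) and ACAT2 (-0.75) were called lower, and MVD was at -0.052. The sterol enzymes LSS (-0.59) and NSDHL (-0.47) were also called lower there, and PMVK in addition without the block (adjusted p = 0.0348). At that scaling with the block 5 of the 31 genes were called lower, where 3833 of 13155 genes were. Without the block 1 of the 31 was, where 1354 of 13155 genes were.

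ACAT2, the thiolase that joins the first acetyl-CoA units, averaged 25.8 ± 5.05 FPKM in CD20+ and 31.1 ± 8.23 FPKM in CD20- cells and was lower in CD20+ in each pair. HMGCS1, which makes HMG-CoA, was the most abundant gene of this role, at 150 ± 35.6 FPKM in CD20+ and 150 ± 9.01 FPKM in CD20- cells (SD, n = 3). Its CD20+ libraries spread from 112 to 183 FPKM, so its mean hides differences of -0.37, 0.34 and -0.063 (log2) in pairs 1, 2 and 3. MVK, mevalonate kinase, averaged 11.9 ± 1.64 and 11.2 ± 0.665 FPKM in CD20+ and CD20- cells. FDPS, farnesyl diphosphate synthase, varied little, at 74.7 ± 1.44 FPKM in CD20+ and 70.2 ± 2.77 FPKM in CD20- cells. Its groups did not overlap, with a log2 change of 0.09. The summed level of the 7 genes was 350, 405 and 370 FPKM in CD20+ replicates 1, 2 and 3, against 384, 378 and 381 FPKM in CD20- replicates 1, 2 and 3, and their median change was -0.03.

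In the steps from squalene to cholesterol, the reductases DHCR7 and TM7SF2 had the largest changes, and FDFT1, LSS and CYP51A1 had low values in both groups. DHCR7, which completes cholesterol, measured 124, 123 and 131 FPKM in CD20+ replicates 1, 2 and 3, against 95.8, 94.6 and 82.2 FPKM in CD20- replicates 1, 2 and 3. These groups were well separated, with means of 126 ± 4.52 FPKM in CD20+ and 90.9 ± 7.50 FPKM in CD20- cells (SD, n = 3). The log2 change of 0.47 ± 0.17 (SE) did not pass with the block (limma, adjusted p = 0.138) and passed in voom with the block (adjusted p = 0.0374). With the block it also passed with the FPKM total without mitochondrial genes (adjusted p = 0.046). It did not with the filter at 10 FPKM (adjusted p = 0.0673). With the block DHCR7 was also called higher without replicate 1, and was not called without replicate 2 or 3.

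TM7SF2, a reductase of the sterol ring, measured 41.5, 22.7 and 26.7 FPKM in CD20+ replicates 1, 2 and 3, against 21.6, 22.1 and 15.99 FPKM in CD20- replicates 1, 2 and 3. CD20+ replicate 1 stood far above the rest, and replicate 2 was nearly level between the groups. Without CD20+ replicate 1 its change was 0.31, and with the block and without replicate 1 it was 0.37 (limma, adjusted p = 0.131). With all libraries its change of 0.55 ± 0.17 (SE) did not pass with the block (adjusted p = 0.0918) and passed with the block and the filter at 10 FPKM (adjusted p = 0.00433). With the block TM7SF2 also passed in voom (adjusted p = 0.00497) and with the FPKM total without mitochondrial genes (adjusted p = 0.0296). It did not with no filter (adjusted p = 0.499). The gene lies directly behind VPS51 on the same strand and shares 16 of its 3408 exon bases with it.

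EBP, the isomerase that shifts the double bond of the sterol ring, was the most abundant gene of this role, at 163 ± 13.7 FPKM in CD20+ and 137 ± 9.62 FPKM in CD20- cells (SD, n = 3). Its groups did not overlap, and its change of 0.25 did not pass with the block (adjusted p = 0.485). SQLE, the epoxidase often taken as a control point, averaged 42.6 ± 8.43 FPKM in CD20+ and 36.2 ± 0.316 FPKM in CD20- cells. Its CD20- libraries were nearly identical, while the CD20+ libraries read 32.9, 47.6 and 47.4 FPKM, with replicate 1 below every CD20- library. MSMO1, an oxidase of sterol methyl groups, averaged 64.0 ± 4.45 FPKM in CD20+ and 58.4 ± 12.7 FPKM in CD20- cells. NSDHL and HSD17B7, which finish the removal of those methyl groups, averaged 55.4 ± 21.9 and 15.1 ± 1.69 FPKM in CD20+, against 52.3 ± 10.9 and 14.4 ± 3.76 FPKM in CD20- cells. SC5D, a desaturase near the end of the route, averaged 11.4 ± 2.55 FPKM in CD20+ and 12.8 ± 5.36 FPKM in CD20- cells. HSD17B7 has an expressed pseudogene, HSD17B7P2, at 4.08 and 2.42 FPKM in CD20+ and CD20- cells, with which reads may be shared.

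FDFT1 (squalene synthase), LSS (lanosterol synthase) and CYP51A1 (lanosterol demethylase) had low values. FDFT1 averaged 4.05 ± 0.865 FPKM in CD20+ and 4.19 ± 0.271 FPKM in CD20- cells (SD, n = 3). None of its 18 protein-coding neighbours within 700 kb reached a mean of 10 FPKM, and CTSB, a lysosomal protease named here after its values were seen, was the highest at 4.64 FPKM. Whether reads from that region were lost in counting was not tested, so the level of FDFT1 is uncertain. LSS averaged 6.17 ± 0.830 FPKM in CD20+ and 6.90 ± 0.192 FPKM in CD20- cells. CYP51A1 averaged 4.26 ± 0.896 FPKM in CD20+ and 4.48 ± 0.430 FPKM in CD20- cells. Of the exon bases of CYP51A1, 83.2% also belong to exons of other genes, 79.4% on the same strand, and how the counting treated such reads is not given in the sources used here. For ACAT2 the share is 52.3%, all on the other strand. The 11 genes of this role summed to 564, 505 and 498 FPKM in CD20+ replicates 1, 2 and 3, against 480, 428 and 405 FPKM in CD20- replicates 1, 2 and 3, with a median change of 0.08.

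The fatty acid enzymes included the highest levels of the 32 genes, those of SCD and FASN, and none of the 7 tested was called. SCD, the desaturase that makes oleate, averaged 464 ± 31.5 FPKM in CD20+ and 421 ± 24.7 FPKM in CD20- cells (SD, n = 3), and FASN, fatty acid synthase, 283 ± 28.5 and 234 ± 13.7 FPKM in CD20+ and CD20- cells. The FASN groups did not overlap, although in replicate 2 the log2 difference was only 0.016, and its change of 0.27 ± 0.21 (SE) did not pass with the block (limma, adjusted p = 0.51). ACLY, which releases acetyl-CoA from citrate, averaged 112 ± 6.28 FPKM in CD20+ and 101 ± 4.01 FPKM in CD20- cells, also without overlap, with a change of 0.15.

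ACSS2, which makes acetyl-CoA from acetate, measured 43.7, 65.6 and 75.2 FPKM in CD20+ replicates 1, 2 and 3, against 34.3, 52.1 and 52.2 FPKM in CD20- replicates 1, 2 and 3. Replicate 1 was the lowest library of each group, so the groups overlapped while each pair was higher in CD20+. The change of 0.40 ± 0.15 (SE) did not pass with the block (adjusted p = 0.148). Without the block, leaving out 1 library moved it from 0.20 (without CD20- replicate 1) to 0.62 (without CD20+ replicate 1). FADS1, a desaturase of polyunsaturated fatty acids, was level at 71.1 ± 7.88 FPKM in CD20+ and 70.3 ± 5.71 FPKM in CD20- cells. Its neighbour FADS2 was far lower, at 5.01 ± 0.598 FPKM in CD20+ and 4.67 ± 0.635 FPKM in CD20- cells. ELOVL6, which lengthens the products of FASN, averaged 12.5 ± 2.44 FPKM in CD20+ and 12.5 ± 0.412 FPKM in CD20- cells. The 8 genes summed to 982, 1034 and 1014 FPKM in CD20+ replicates 1, 2 and 3, against 891, 894 and 885 FPKM in CD20- replicates 1, 2 and 3.

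ACACA, the acetyl-CoA carboxylase that commits carbon to fatty acids, was the gene under the filter. It read 0.890, 0.340 and 0.695 FPKM in CD20+ replicates 1, 2 and 3, against 0.352, 0.690 and 0.451 FPKM in CD20- replicates 1, 2 and 3, on 71 to 175 fragments, and no change was tested. Its 20 protein-coding neighbours within 700 kb were low as well, none reaching a mean of 10 FPKM and 2 reaching 1 FPKM. AATF, a widely expressed nuclear factor named here after its values were seen, was listed at 0 in each of the 6 libraries. Loss of reads from that region in counting was not tested, so the level of ACACA is uncertain and was not set against those of other genes.

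**Figure D3:**
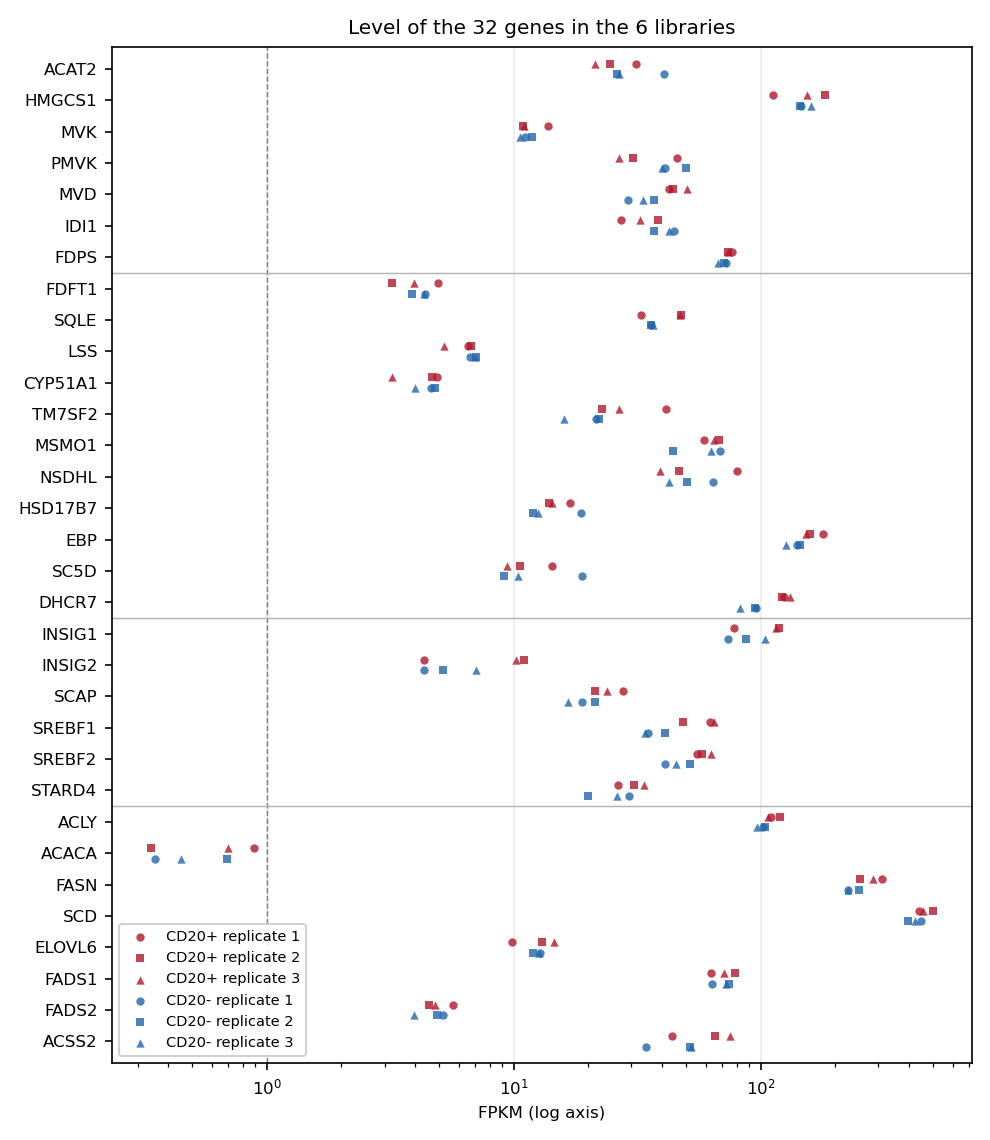
FPKM (log axis) of the 32 genes in each library, CD20+ in red above CD20- in blue, with circles, squares and triangles for replicates 1, 2 and 3, and lines between the roles. The dashed line is the filter of 1 FPKM, below which ACACA lies, and SCD and FASN are highest in both groups.

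**Figure D4:**
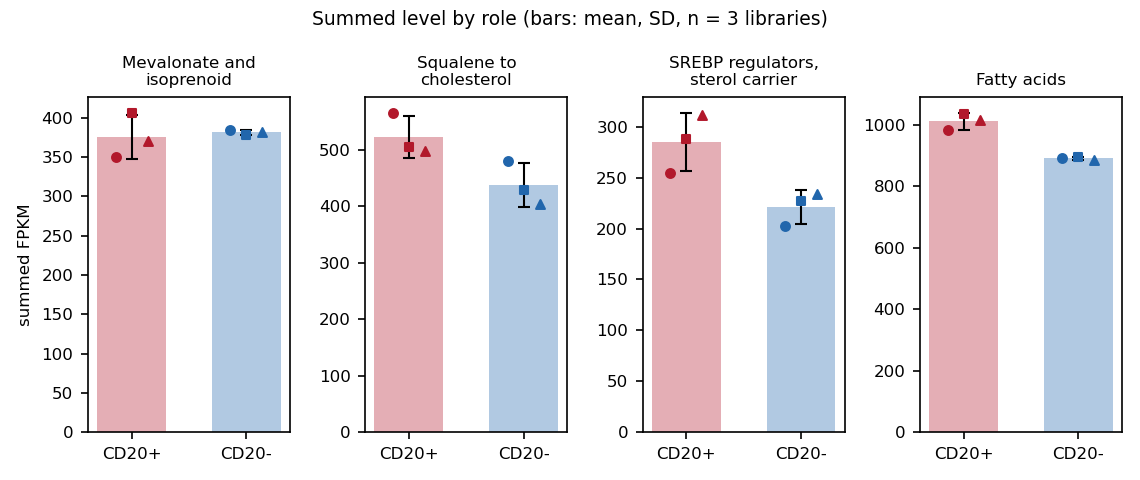
Summed FPKM of the genes of each role, CD20+ left of CD20-, as mean (bar), SD (line, n = 3 libraries) and libraries (circles 1, squares 2, triangles 3), with no test. The CD20+ libraries lie above the CD20- libraries for the squalene, regulator and fatty acid roles and overlap them for the mevalonate role. Sums are weighted to the most abundant genes, such as SCD and FASN. Of the 11 squalene genes 4 had negative changes, with a median of 0.08.

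Replicate 1 stood apart from replicates 2 and 3 in both sorted fractions for some of the 31 genes, and for many genes in general. For 6 of the 31 genes tested both libraries of replicate 1 lay above the other 4, where 23.5% of all genes did, and for 5 they lay below, where 20.8% did. Above were ACAT2, FDFT1, NSDHL, HSD17B7, SC5D and FADS2, and below were SQLE, INSIG1, INSIG2, FADS1 and ACSS2. The share above was near that of all genes, and so was the share below. NSDHL read 80.3 FPKM in CD20+ replicate 1 and 64.0 FPKM in CD20- replicate 1, and 39.2 to 50.3 FPKM in the other 4 libraries. SC5D read 14.3 and 19.0 FPKM in CD20+ and CD20- replicate 1, and 9.11 to 10.6 FPKM in the others. Both libraries of replicate 2 lay above the other 4 for FADS1 alone and below for FDFT1 alone, where 2.86% and 1.95% of all genes did. Both libraries of replicate 3 lay above for 0 of the 31 genes and below for CYP51A1 and NSDHL, where 3.98% and 4.65% did.

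Other genes of the same physiology were read from 5 further lists, and none of them had a called gene in either fit at the filter of 1 FPKM. Of 12 genes of SREBP processing and turnover, 6 had positive and 6 negative changes, with a median of 0.0018. The site-1 protease MBTPS1, which makes the first cut of SREBP, averaged 19.0 ± 0.515 FPKM in CD20+ and 16.9 ± 0.936 FPKM in CD20- cells (SD, n = 3). The groups did not overlap, and MBTPS1 did not pass with the block (limma, adjusted p = 0.552). SAR1A, a GTPase of the vesicles that leave the endoplasmic reticulum, averaged 15.03 ± 2.24 FPKM in CD20+ and 17.03 ± 1.90 FPKM in CD20- cells.

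The 10 genes of the isoprenoid branches leaned downward, 9 with negative changes and a median of -0.25, and 6 were lower in each pair, where 20.3% of all genes were. COQ2, which attaches the isoprenoid tail of ubiquinone, averaged 6.36 ± 2.14 FPKM in CD20+ and 8.56 ± 1.90 FPKM in CD20- cells (SD, n = 3; limma with the block, adjusted p = 0.123). PDSS2 and GGPS1, which make isoprenoid chains, had changes of -0.31 and -0.26 (adjusted p = 0.214 and 0.302).

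Of the 12 genes of sterol efflux, esterification and transport 11 were tested, 9 with positive changes and a median of 0.10. NPC1, the lysosomal sterol exporter, averaged 8.005 ± 0.919 FPKM in CD20+ and 5.74 ± 0.137 FPKM in CD20- cells (SD, n = 3; limma with the block, adjusted p = 0.0972). Its soluble partner NPC2 lay the other way, at 58.9 ± 3.68 FPKM in CD20+ and 69.1 ± 1.53 FPKM in CD20- cells (adjusted p = 0.436). STARD3, a sterol carrier of late endosomes, averaged 13.0 ± 1.16 FPKM in CD20+ and 9.67 ± 0.939 FPKM in CD20- cells (adjusted p = 0.134). The groups did not overlap for these 3 genes. Of all genes tested 8.87% lay higher without overlap and 6.14% lower.

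Of 22 genes of fatty acid elongation, activation and glycerolipid synthesis 20 were tested, with a median of 0.04. For 0 of the 20 the groups lay apart, where 8.87% of all genes lay higher without overlap and 6.14% lower. FADS3, TECR and MID1IP1 had the smallest p at a mean of at least 5 FPKM, with changes of 0.28, 0.27 and -0.21 (limma with the block, adjusted p = 0.327, 0.375 and 0.489). The 16 genes of fatty acid oxidation had 7 positive and 9 negative changes and a median of -0.06. ACADVL, which opens the oxidation of long chains in mitochondria, averaged 171 ± 35.1 FPKM in CD20+ and 113 ± 21.5 FPKM in CD20- cells (SD, n = 3). Its change of 0.58 ± 0.18 (SE) did not pass with the block (adjusted p = 0.0871) and passed with the block and the filter at 10 FPKM (adjusted p = 0.0298). ETFA and ECHS1, also of mitochondrial oxidation, had changes of -0.39 and -0.34 (adjusted p = 0.142 and 0.256).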

How the data were processed

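The deposited table gives 1 value per Ensembl gene and library. Its header names no unit. The deposited values were taken as FPKM computed by the authors, because times the exon length in GENCODE release 29 they are whole multiples of 1 step per library for 98.1 to 98.6% of low values (up to 20 fragments, tolerance 0.02). The step gives the authors' library size, 0.864 to 1.10 times the recovered fragment total. The submitters' processing notes name GRCh38 (hg38), HISAT2, DESeq2 and featureCounts 1.5.0. Strand use and other settings are not given there. Of 58395 genes 58275 matched GENCODE, and symbols came from a newer gene list.

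Here, log2(FPKM + 1) of genes averaging 1 FPKM or more was fitted in limma 3.58.1 (R 4.3.3, trend and robust prior), CD20+ minus CD20-, with Benjamini-Hochberg adjustment at 0.05. Log2 changes on this scale understate those of low genes. On simulated data most false calls fell on genes under 200 fragments, more of them than the threshold allows. A minimum of 200 fragments was therefore added as an alternative after the data were seen. The simulation gave every gene the same dispersion and had no replicate effect, unlike these libraries, so it does not show where false calls lie here. Of the 13155 genes 28.1% were under it, and of the 767 called with the block 28.7% were. Deviations from the group means of same-numbered libraries correlated at 0.675, 0.238 and 0.509 for replicates 1, 2 and 3, each over 0.1, so a paired fit (replicate block) is given beside it. CD20+ replicate 3 correlated with CD20- replicate 2 at 0.426, and CD20+ replicate 2 with CD20- replicate 3 at 0.396. CD20- replicate 2 thus followed CD20+ replicate 3 more closely than it followed CD20+ replicate 2 (0.238). Deviations cancel within a group for each gene, so a replicate 1 apart in both groups raises the correlations among replicates 2 and 3. The correlations therefore do not show that replicates 2 and 3 are paired as numbered, and the calls of the paired fit depend on that pairing. The paired fit leaves 2 residual degrees of freedom, with a median prior of 10.2. Members, lists and tests were chosen with earlier results of these data known. Every library is given for genes called in either fit, for the 8 members with the smallest p in the block fit and for the SREBP regulators, and up to 3 genes per further list at a mean of at least 5 FPKM by the same p. One gene that this rule names is not reported here. Counting error is part of the spread and matters most for ACACA (71 to 175 fragments per library) and CYP51A1 (183 to 311). Alternatives covered filter, pseudocount, scaling, voom, prior and left-out libraries.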

Additional observations from a re-analysis of the deposited data

How the results depend on the processing

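Of the 32 genes the fit without the block called 0, a count unchanged in the settings without a block except scaling to the FPKM total (1, PMVK, lower). Against 1 of 13155 genes in all, other settings gave 0 with no filter, voom or a minimum of 200 fragments, 2 with a pseudocount of 10, 8 with quantile normalisation, 1382 with the FPKM total and 0 to 322 when 1 library was left out (322 without CD20+ replicate 1). With the replicate block, 767 genes and 1 member (SREBF1) were called, 954 and 3 with the filter at 10 FPKM, 0 and 0 with no filter, 716 and 1 at a pseudocount of 0.1, 3923 and 5 (each lower) with the FPKM total, 942 and 4 with the total without mitochondrial genes, 1619 and 5 with voom, 1359 and 4 (SREBF1, MVD, TM7SF2 and INSIG2) with a minimum of 200 fragments, added after the data were seen, and 450 and 0 with a prior neither trended nor robust. With the block and a replicate left out, 1 to 2141 genes (331 without replicate 3) and 0 to 5 members were called, 0 members without replicate 2 or 3. The 4 called with the block and the total without mitochondrial genes were DHCR7, SREBF1, MVD and TM7SF2, each higher. What caused these shifts was not tested. The adjusted p of SREBF1 ran from 0.0011 to 0.5 with the block and from 0.108 to 0.948 without it, and its change stayed positive in all settings run (0.15 to 0.86). With the FPKM total the changes turned to -0.41 (MVK), -0.052 (MVD), -0.42 (FDPS), -0.29 (SQLE), -0.36 (MSMO1), -0.47 (NSDHL), -0.41 (HSD17B7), -0.27 (EBP), -0.043 (DHCR7), -0.29 (INSIG1), -0.16 (SCAP), -0.16 (SREBF2), -0.23 (STARD4), -0.36 (ACLY), -0.25 (FASN), -0.38 (SCD), -0.5 (FADS1), -0.35 (FADS2) and -0.11 (ACSS2), with and without the block. With the total without mitochondrial genes, HMGCS1 (0.072), FDFT1 (0.028), CYP51A1 (0.013) and ELOVL6 (0.079) turned positive, and HMGCS1 with quantile normalisation (0.19). Leaving out 1 library, without the block, changes that turned sign ranged from -0.19 to 0.16 (HMGCS1), -0.03 to 0.13 (MVK), -0.18 to 0.067 (FDFT1), -0.16 to 0.078 (CYP51A1), -0.037 to 0.27 (MSMO1), -0.26 to 0.25 (NSDHL), -0.034 to 0.27 (HSD17B7), -0.3 to 0.19 (SC5D), -0.13 to 0.13 (ELOVL6), -0.063 to 0.096 (FADS1) and -0.0094 to 0.15 (FADS2). Leaving out a pair, with the block, they ranged from -0.22 to 0.14 (HMGCS1), -0.036 to 0.17 (MVK), -0.16 to 0.023 (FDFT1), -0.14 to 0.013 (CYP51A1), -0.083 to 0.33 (MSMO1), -0.11 to 0.11 (NSDHL), -0.26 to 0.035 (SC5D), -0.13 to 0.15 (ELOVL6) and -0.017 to 0.032 (FADS1). With the minimum of 200 fragments and the block 94.1% of genes had an infinite prior. Without the block, leaving out 1 library also moved by over 1.5 times ACAT2 (-0.4 to -0.05), PMVK (-0.59 to -0.21), IDI1 (-0.46 to -0.22), SQLE (0.12 to 0.38), INSIG2 (0.27 to 0.86) and STARD4 (0.12 to 0.38). In limma on deposited log2(FPKM + 1), with all libraries, a trend and robust prior and the filter of 1 FPKM, the block changed only the SREBF1 call. With the FPKM totals and in voom it changed further calls, as counted above.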
